A study of Mus musculus with 9 samples.

Results

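T lymphocytes and natural killer (NK) cells are the lymphocytes that recognise and kill tumour cells, and 36 genes of these cells were followed through the primary tumours of 3 mouse mammary carcinoma lines. The genes were a given list covering the T cell receptor complex, costimulatory and checkpoint receptors, regulatory and interleukin-2 receptor genes, memory or naive markers, NK and effector genes and homing receptors. Each gene was read from its brightest probe set on the array. Of the 36 genes, 34 had a probe set of their own, out of 18193 genes measured in all, and Lck and Tcf7 were not analysed here. After a filter on dim probe sets 30 of the 34 were tested, and Cd28, Cd27, Foxp3 and Il2ra were measured but did not pass it.

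The lines were 67NR, 66cl4 and 4T1, which were derived from a single mammary tumour of a BALB/c-background mouse and differ in how far they metastasise. Cells labelled 67NR/CMVLUC, 66cl4/CMVLUC or 4T1/CMVLUC were placed in a right mammary gland of female BALB/c mice aged 7 to 9 weeks, with 1000000 viable cells and 3 mice for each line. All 9 mice thus received cells carrying the CMVLUC label, and no tumour-free gland is used here as a control. On day 15 the tumours were taken out, the tumour area was cut from sections by laser capture, and total RNA of each mouse was hybridised to 1 array. BALB/c mice have a working immune system, so host lymphocytes can enter the grafts, and each line stands for 1 cell line only. Among epithelial markers the keratin gene Krt8 had line means of 6.74 in 67NR, 13.01 in 66cl4 and 13.48 in 4T1 on the log2 scale, while Cdh1 and Krt7 were not above background on any array of 67NR or 66cl4.

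A T cell reads peptide antigens through a receptor whose signalling chains are encoded by Cd3d, Cd3e, Cd3g and Cd247, with Cd4 or Cd8 as coreceptor. The kinase Zap70 and the adaptor Lat carry the signal onwards. NK cells lack this receptor and weigh activating receptors such as those encoded by Klrk1 (NKG2D) and Ncr1 (NKp46) against inhibitory ones. Both cell types depend on the T-box factors Tbx21 and Eomes, release interferon gamma, and are drawn into tissue by chemokines that bind Cxcr3 and Cxcr6. In tumours, lasting stimulation is associated with the checkpoint receptors encoded by Pdcd1, Lag3, Havcr2 and Ctla4.

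Values are the deposited log2 signals, and lines were compared by log2 differences, each with its SE (the standard error from the model, n = 3 mice per line). A gene was called when its adjusted p was under 0.05 in limma's moderated test, with Benjamini-Hochberg adjustment over all 13409 genes tested. Background was the highest of 27 bacterial control probe sets on the array, 4.83 to 5.08. Levels of different genes were not compared, because probe sets differ in brightness. All 9 arrays had nearly the same median, 5.51 to 5.58, and the number of arrays limits the precision. Spiked hybridization controls ran at 10.87 to 11.47 in 67NR, 10.64 to 11.1 in 66cl4 and 10.3 to 10.72 in 4T1, and the scan numbers in the labels were higher for 67NR (212 to 232) than for the other lines (73 to 192), so scan order and line can be told apart only in part.

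The 66cl4 tumours had the lowest levels of most of these genes, and the 67NR tumours the highest. Of the 34 measured genes, 25 had their lowest line mean in 66cl4 and 24 their highest in 67NR, while 9 had their highest in 4T1. Eomes was the 1 gene with its highest mean in 66cl4. In 66cl4 against 67NR, 23 of 30 tested genes were lower, 1 was higher and 6 were not called. Of all tested genes 16.0% were called lower, 20.0% higher and 36.1% either way in that comparison. The median difference of the 30 genes was -0.86, beside 0.01 for all genes, and in 24 of them the values of the lines did not overlap (52.5% of all genes). A moderated F-test over the 3 lines called 25 of the 30 genes, against 56.6% of all genes tested.

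By the median difference of the tested genes, the 4T1 tumours stood between the other lines. Many single genes did not, as 9 of the measured genes had their highest line mean in 4T1 and 8 their lowest. Against 67NR, 7 of 30 genes were lower (Cd4, Ccr7, Eomes, Nkg7, Klrd1, Klrk1 and Ncr1), 2 were higher (Il7r and Cxcr3) and 21 were not called. The background shares were 20.5% lower, 19.4% higher and 39.9% either way, so 9 called genes of 30 lay near or under the background. The median difference was -0.32, beside -0.03 for all genes, and the values of 12 genes did not overlap (49.7% of all genes). Against 66cl4, 14 genes were higher in 4T1, 3 were lower (Ccr7, Eomes and Ncr1) and 13 were not called, with background shares of 17.9% higher, 23.4% lower and 41.3% either way. The median difference there was 0.64, beside -0.03 for all genes, and values did not overlap for 16 genes (50.9% of all genes). The 3 comparisons share lines with each other, and in tissue of mixed cells, fewer lymphocytes and less of an RNA per lymphocyte cannot be told apart.

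**Figure D1:**
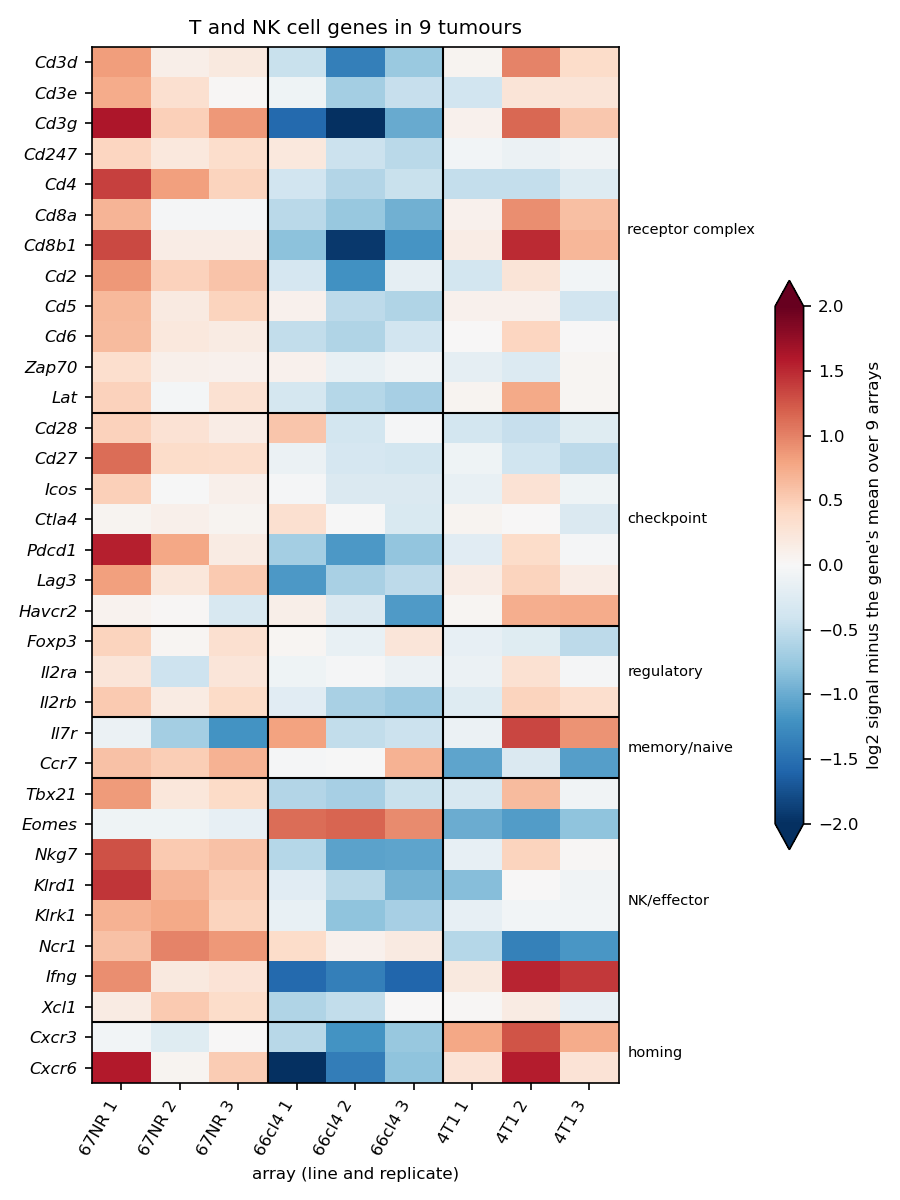
Heat map of the 34 measured genes (rows, grouped by role) on 9 arrays (columns), coloured by log2 signal minus the gene's own mean over the 9 arrays, with colours saturating at the ends of the scale. Most rows are blue in 66cl4 and red in 67NR. Eomes is red in 66cl4, and Cxcr3 is red in 4T1.

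Signals reached background in different numbers of genes by line. Above it on all 3 arrays were 29 of the 34 genes in 67NR, 18 in 66cl4 and 23 in 4T1, and above it on no array were 2 genes in 67NR, 7 in 66cl4 and 3 in 4T1. Over the whole set, 16 genes were above background on all 9 arrays and 17 on 1 to 8 arrays. Foxp3, which encodes the defining factor of regulatory T cells, was not above background on any array. No tested gene passed the filter through arrays of 1 line alone, but Pdcd1, Tbx21 and Ifng passed it through arrays of 67NR and 4T1 only. The mean deviation of the 34 genes from their own 9-array means was 0.69, 0.24 and 0.26 on the 67NR arrays, -0.29, -0.64 and -0.47 on the 66cl4 arrays and -0.15, 0.33 and 0.04 on the 4T1 arrays. Replicate 1 of 67NR and replicate 2 of 4T1 were thus the highest of their lines, and the 66cl4 arrays lay below all others.

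The promoters of 4 of these genes are shown because the genes took different paths through the lines. Cd3d and Nkg7 were low in 66cl4, Ncr1 was low in 4T1 and Eomes was high in 66cl4. Each sequence is the 250 bases before the start site from RefSeq (assembly GRCm38.p6), on the gene's own strand. It runs from chr9:44981536-44981785 for Cd3d, chr7:43436888-43437137 for Nkg7, chr7:4337465-4337714 for Ncr1 and chr9:118477939-118478188 for Eomes, all on the plus strand. Capitals mark matches, on either strand, to a short Ets core (AGGAAG), Runx core (TGTGGT), T-box core (AGGTGT) or Tcf core (CTTTGA), and no match overlaps another in these windows.
Cd3d: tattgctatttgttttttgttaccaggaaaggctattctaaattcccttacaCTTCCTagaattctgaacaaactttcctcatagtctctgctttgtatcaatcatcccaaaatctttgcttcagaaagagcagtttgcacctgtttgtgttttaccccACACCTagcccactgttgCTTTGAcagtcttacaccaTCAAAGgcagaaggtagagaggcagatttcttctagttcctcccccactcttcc
Nkg7: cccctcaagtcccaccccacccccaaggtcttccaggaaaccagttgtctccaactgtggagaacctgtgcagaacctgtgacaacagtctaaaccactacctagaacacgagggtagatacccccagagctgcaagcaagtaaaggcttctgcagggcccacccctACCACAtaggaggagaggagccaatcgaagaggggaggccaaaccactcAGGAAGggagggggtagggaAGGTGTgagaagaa
Ncr1: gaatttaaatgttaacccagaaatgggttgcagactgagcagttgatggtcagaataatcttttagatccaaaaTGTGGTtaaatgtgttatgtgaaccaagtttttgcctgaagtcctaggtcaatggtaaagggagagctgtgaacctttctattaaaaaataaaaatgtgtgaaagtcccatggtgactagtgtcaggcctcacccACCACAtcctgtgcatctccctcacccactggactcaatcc
Eomes: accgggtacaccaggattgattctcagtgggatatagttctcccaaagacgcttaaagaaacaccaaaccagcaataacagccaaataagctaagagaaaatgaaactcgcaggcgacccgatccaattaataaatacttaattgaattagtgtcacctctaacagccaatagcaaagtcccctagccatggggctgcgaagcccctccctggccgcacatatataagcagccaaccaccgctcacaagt

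The Cd3d window held 4 matches, namely 1 Ets, 1 T-box and 2 Tcf. Nkg7 held 1 Runx, 1 Ets and 1 T-box match, Ncr1 held 2 Runx matches and Eomes held 0. Promoters of 26 of the 36 genes were in the table. An Ets core was found in 16 of the 26 (61.5%), beside 29.2% of all 27025 promoters of the same length. A Runx core was in 8 (30.8%, all 14.2%), a T-box core in 7 (26.9%, all 12%) and a Tcf core in 3 (11.5%, all 14%). The median GC content was 45.8% in the 26 and 52% in all promoters, with a median of 3 CpG beside 6. A match describes the letters alone and shows no binding in these tumours. Cd3g and Cd3d, which start 1355 bp apart on opposite strands, were among the genes with a T-box core.

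Genes of the T cell receptor complex and its signalling were lower in 66cl4 than in 67NR in 11 of 12 tested cases, and 6 of the 12 were higher in 4T1 than in 66cl4. Between 4T1 and 67NR only Cd4 was called among these 12. Of all tested genes, 16.0% were called lower in the first of these comparisons and 17.9% higher in the second. Calls in either direction covered 36.1%, 41.3% and 39.9% of all genes in the order given, and 6 of 12 lies near the second share. The median differences were -0.89 for 66cl4 against 67NR, -0.32 for 4T1 against 67NR and 0.58 for 4T1 against 66cl4. Among the 12, the difference of 66cl4 from 67NR was largest for Cd3g and smallest for Zap70.

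Cd3g encodes the gamma chain of CD3. Its log2 signals were 8.40, 7.26 and 7.66 in 67NR, 5.23, 4.62 and 5.77 in 66cl4 and 6.87, 7.93 and 7.33 in 4T1. The 66cl4 values lay below all others, and those of 67NR and 4T1 overlapped. The difference of 66cl4 from 67NR was -2.57 ± 0.37 (5.93-fold, limma adjusted p = 0.000579), and 4T1 exceeded 66cl4 by 2.17 ± 0.37 (adjusted p = 0.00125). Cd3d, the delta chain, read 7.61, 6.90 and 6.97 in 67NR, 6.34, 5.42 and 6.04 in 66cl4 and 6.83, 7.77 and 7.14 in 4T1. The differences were -1.22 ± 0.30 for 66cl4 against 67NR (adjusted p = 0.0104) and 1.31 ± 0.30 for 4T1 against 66cl4 (adjusted p = 0.00636). Both genes had the same layout, with 66cl4 apart from the other lines.

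Cd3e, the epsilon chain, read 8.15, 7.73 and 7.43 in 67NR, 7.32, 6.72 and 6.94 in 66cl4 and 7.02, 7.66 and 7.66 in 4T1. Its difference of 66cl4 from 67NR was -0.78 ± 0.24 (limma adjusted p = 0.0288), and 4T1 overlapped both lines. Cd247, the zeta chain, read 5.73, 5.50 and 5.64 in 67NR, 5.51, 4.87 and 4.75 in 66cl4 and 5.24, 5.17 and 5.23 in 4T1. The 66cl4 difference from 67NR was -0.58 ± 0.18 (adjusted p = 0.029), with 1 overlapping 66cl4 array, replicate 1. That array was also the only one of 66cl4 above background for Cd247. Of the 4 probe sets of Cd247, the others were above background on no array and were not tested. The differences of Cd3e and Cd247 were among the smallest called ones of the complex, and single arrays ended the calls. For Cd3e, the adjusted p without 67NR replicate 1 was 0.105, without 67NR replicate 2 0.0671, without 66cl4 replicate 2 0.103 and without 66cl4 replicate 3 0.0737. For Cd247, it was 0.0911 without 67NR replicate 1, 0.0753 without 67NR replicate 3, 0.101 without 66cl4 replicate 2 and 0.102 without 66cl4 replicate 3. In all of these fits the direction was kept. Other fits added calls for 4T1. Cd3e was 0.67 above 66cl4 without 4T1 replicate 1 (adjusted p = 0.0424). Without 66cl4 replicate 1, Cd247 in 4T1 was -0.41 against 67NR (adjusted p = 0.0127) and 0.40 against 66cl4 (adjusted p = 0.0248).

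The coreceptors parted in 4T1. Cd4 marks helper and regulatory T cells, and some macrophages carry it too. The Cd4 signals were 8.21, 7.67 and 7.29 in 67NR, 6.46, 6.25 and 6.40 in 66cl4 and 6.36, 6.36 and 6.58 in 4T1, so both of the metastatic lines lay below 67NR with no overlap. The differences from 67NR were -1.36 ± 0.20 in 66cl4 (limma adjusted p = 0.000645) and -1.29 ± 0.20 in 4T1 (adjusted p = 0.000705), while 4T1 and 66cl4 differed by 0.06 ± 0.20 (adjusted p = 0.833). Cd8a and Cd8b1 encode the chains of the coreceptor of cytotoxic T cells. Cd8a read 7.34, 6.63 and 6.63 in 67NR, 6.12, 5.89 and 5.70 in 66cl4 and 6.74, 7.58 and 7.25 in 4T1. Here 66cl4 lay below both other lines, and 67NR and 4T1 overlapped. The 66cl4 difference from 67NR was -0.96 ± 0.25 (adjusted p = 0.0129), and 4T1 exceeded 66cl4 by 1.29 ± 0.25 (adjusted p = 0.00235), but 4T1 and 67NR differed by 0.33 ± 0.25 (adjusted p = 0.329).

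Cd8b1 showed the same order. It read 7.16, 5.98 and 5.98 in 67NR, 5.01, 3.91 and 4.66 in 66cl4 and 5.98, 7.32 and 6.49 in 4T1, with 1 of 3 arrays of 66cl4 above background. The differences were -1.85 ± 0.42 for 66cl4 against 67NR (limma adjusted p = 0.00731) and 2.07 ± 0.42 for 4T1 against 66cl4 (adjusted p = 0.00336). Cd4 and Cd8a also had dimmer probe sets. Dimmer probe sets were fitted in a run over all probe sets that was added after the data had been seen, with its own adjustment. The second one of Cd4 gave -1.17 for 66cl4 and -0.97 for 4T1 against 67NR. It was above background on only 3 arrays, with line means of 5.59 in 67NR, 4.42 in 66cl4 and 4.62 in 4T1. The last 2 means lie under the background controls, so these differences have no firm size. Of the 4 other probe sets of Cd8a, those with means of 6.68 and 6.17 in 67NR gave larger differences of 66cl4 from 67NR, -1.66 and -1.92, another gave -0.23 (adjusted p = 0.33), and the dimmest was not tested. The probe set with -1.92 was above background on 6 arrays. Its 66cl4 mean of 4.26 lay under the background controls, so that difference has no firm size.

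Adhesion receptors and adaptors of the T cell surface followed. Cd2, an adhesion receptor that binds Cd48 in the mouse, read 6.27, 5.87 and 5.97 in 67NR, 5.06, 4.19 and 5.23 in 66cl4 and 5.03, 5.66 and 5.35 in 4T1. Only 66cl4 against 67NR was called, at -1.21 ± 0.26 (limma adjusted p = 0.00578). Values of 4T1 also lay below all of 67NR, at -0.69 ± 0.26 (adjusted p = 0.062). Without 4T1 replicate 2 that difference was -0.85 (adjusted p = 0.0471), without 66cl4 replicate 2 the adjusted p was 0.0131 and without 66cl4 replicate 3 it was 0.0496. Cd6, a receptor for Alcam, read 7.21, 6.78 and 6.74 in 67NR, 6.08, 5.98 and 6.20 in 66cl4 and 6.59, 7.01 and 6.59 in 4T1. It was -0.82 ± 0.16 in 66cl4 against 67NR (adjusted p = 0.00314) and 0.64 ± 0.16 in 4T1 against 66cl4 (adjusted p = 0.00979), with 66cl4 apart from both.

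Cd5, a restraining receptor of T cells and some B cells, read 5.49, 5.03 and 5.29 in 67NR, 4.93, 4.32 and 4.24 in 66cl4 and 4.93, 4.93 and 4.46 in 4T1. Most values of 66cl4 were at background, and 66cl4 differed from 67NR by -0.77 ± 0.21 (limma adjusted p = 0.017). Leaving out 67NR replicate 1 (adjusted p = 0.0657), 67NR replicate 3 (0.0503), 66cl4 replicate 2 (0.0629) or 66cl4 replicate 3 (0.0624) ended that call. In 4T1 against 67NR, Cd5 was -0.50 ± 0.21 (adjusted p = 0.0885), which was called without 66cl4 replicate 1 (adjusted p = 0.0432).

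Lat, the adaptor that links the receptor to its downstream enzymes, read 7.60, 7.10 and 7.44 in 67NR, 6.79, 6.56 and 6.47 in 66cl4 and 7.19, 7.89 and 7.18 in 4T1. It differed by -0.77 ± 0.21 in 66cl4 against 67NR (limma adjusted p = 0.0152) and by 0.81 ± 0.21 in 4T1 against 66cl4 (adjusted p = 0.0105). The first of these was lost without 67NR replicate 1 (adjusted p = 0.0601) and without 66cl4 replicate 3 (0.0512). Zap70 lay between 8.32 and 8.93 on all arrays, and no comparison was called on its brightest probe set. Its difference of 66cl4 from 67NR was -0.22 ± 0.12 there (adjusted p = 0.203). Both dimmer probe sets gave -0.55 (adjusted p = 0.0215) and -0.57 (adjusted p = 0.033). For 4T1 against 67NR, Zap70 was -0.31 ± 0.12 (adjusted p = 0.0697), called without 4T1 replicate 3 at -0.40 (adjusted p = 0.0294).

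**Figure D2:**
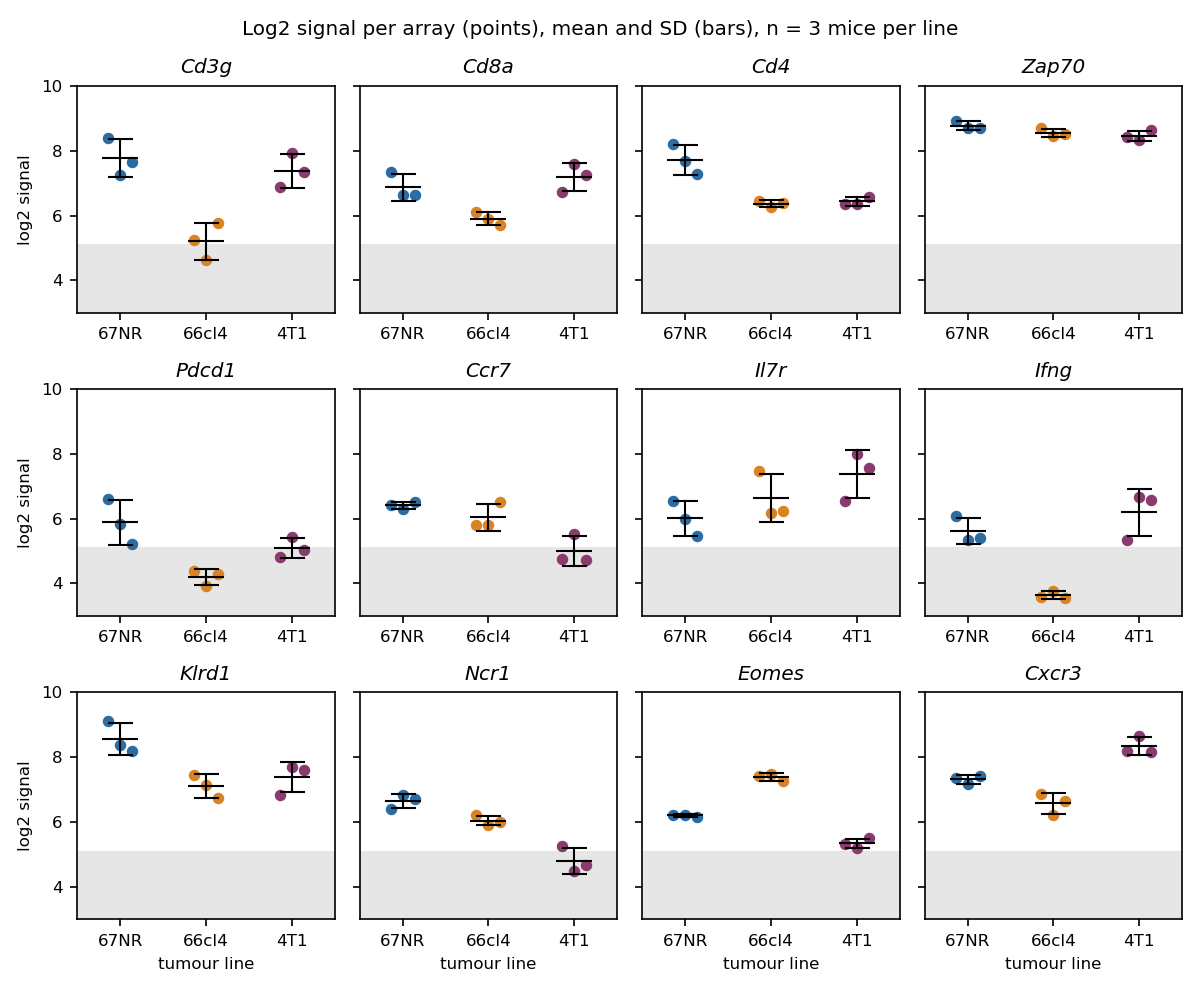
Log2 signal per array (points) of 12 of the genes by tumour line, with mean and SD (bars, n = 3 mice per line). The grey area is the range at or below the highest background control of any array, 5.08. Cd3g, Pdcd1 and Ifng dip in 66cl4, Cd4 and Klrd1 are highest in 67NR, Ncr1 and Ccr7 are lowest in 4T1, and Eomes peaks in 66cl4.

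Costimulatory and checkpoint receptors gave few calls. Of 5 tested, 2 were lower in 66cl4 than in 67NR (Pdcd1 and Lag3), 3 were higher in 4T1 than in 66cl4 (Pdcd1, Lag3 and Havcr2) and none was called between 4T1 and 67NR by limma. Calls in either direction covered 36.1%, 41.3% and 39.9% of all genes in these comparisons, and 2 of 5 lies near the first of these shares. The medians of the 5 differences were -0.39, 0.91 and -0.17 in that order. At an unadjusted limma p under 0.05, only Pdcd1 passed for 4T1 against 67NR.

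Pdcd1 encodes PD-1, the inhibitory receptor targeted by checkpoint antibodies. It read 6.61, 5.84 and 5.23 in 67NR, 4.38, 3.92 and 4.28 in 66cl4 and 4.83, 5.43 and 5.04 in 4T1. No array of 66cl4 and 1 array of 4T1 was above background. Measured against the background controls of the 66cl4 arrays, Pdcd1 was at least 1.98-fold higher in 67NR (limma adjusted p = 0.00197) and at least 1.14-fold higher in 4T1 (adjusted p = 0.038). The second call was lost when any of 6 arrays was left out. The adjusted p was 0.0555 without 67NR replicate 2, 0.0572 without 66cl4 replicate 1, 0.121 without 66cl4 replicate 2, 0.0717 without 66cl4 replicate 3, 0.121 without 4T1 replicate 2 and 0.072 without 4T1 replicate 3. In 4T1 against 67NR, Pdcd1 was -0.80 ± 0.31 (adjusted p = 0.0636), and without 67NR replicate 3 it was -1.13 (adjusted p = 0.0108).

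Lag3, a receptor that binds MHC class II, read 6.87, 6.28 and 6.58 in 67NR, 4.90, 5.41 and 5.53 in 66cl4 and 6.20, 6.49 and 6.20 in 4T1. The 66cl4 values lay below those of both other lines, which overlapped. The differences were -1.30 ± 0.20 for 66cl4 against 67NR (limma adjusted p = 0.000734) and 1.01 ± 0.20 for 4T1 against 66cl4 (adjusted p = 0.00253). Havcr2 encodes TIM-3, which macrophages and dendritic cells carry as well as T cells. Its signals were 6.85, 6.80 and 6.45 in 67NR, 6.90, 6.49 and 5.65 in 66cl4 and 6.82, 7.51 and 7.52 in 4T1, and all lines overlapped. The call of 4T1 against 66cl4 (0.94 ± 0.30, adjusted p = 0.0319) was lost without 66cl4 replicate 2 (adjusted p = 0.0553), 66cl4 replicate 3 (0.0912, difference 0.59), 4T1 replicate 2 (0.0959) or 4T1 replicate 3 (0.0964).

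The other genes of the group were not called or not tested, and all but Icos were at or near background. Icos, an inducible costimulator, was above background on all 9 arrays, from 5.98 to 6.75. It was -0.39 ± 0.16 in 66cl4 against 67NR (limma adjusted p = 0.0901). Ctla4, the inhibitory partner of Cd28, ran from 4.64 to 5.27 with 5 arrays above background and no call. Cd28 ran from 4.05 to 5.07 and was above background on 1 array each of 67NR and 66cl4. Cd27, a costimulator of the TNF receptor family, reached 5.50 on 67NR replicate 1 and was at background on the other 8 arrays. Neither Cd28 nor Cd27 was tested.

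Among the regulatory and interleukin-2 receptor genes, Foxp3 ran from 3.92 to 4.88 and Il2ra, the alpha chain, from 4.19 to 4.92. Il2ra was above background on 1 array, 4T1 replicate 2, and neither gene was tested. For the regulatory T cell factor the arrays thus give only an upper bound, the background. Il2rb, the beta chain shared by interleukin-2 and interleukin-15 receptors on T and NK cells, was bright and read 7.62, 7.27 and 7.49 in 67NR, 6.87, 6.46 and 6.37 in 66cl4 and 6.84, 7.55 and 7.44 in 4T1. Its difference of 66cl4 from 67NR was -0.90 ± 0.20 (limma adjusted p = 0.0072). Against 66cl4, the 4T1 mean was higher by 0.71 ± 0.20 (adjusted p = 0.0186) with overlapping values. That call was lost without 66cl4 replicate 2 (adjusted p = 0.0603), 66cl4 replicate 3 (0.0674), 4T1 replicate 2 (0.0678) or 4T1 replicate 3 (0.0601). The second probe set of Il2rb gave -0.89 and 0.59 for these comparisons.

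The memory or naive markers did not follow the receptor complex. Neither of the 2 tested genes was called by limma between 66cl4 and 67NR (unadjusted p = 0.195 for Il7r and 0.161 for Ccr7), and they moved in opposite directions in 4T1. Ccr7 guides naive and central memory T cells and mature dendritic cells to lymph nodes. Its signals were 6.41, 6.31 and 6.52 in 67NR, 5.80, 5.81 and 6.51 in 66cl4 and 4.77, 5.53 and 4.72 in 4T1, where 1 of 3 arrays was above background. The 4T1 values lay below all others. Ccr7 was -1.41 ± 0.25 in 4T1 against 67NR (adjusted p = 0.00141) and -1.04 ± 0.25 against 66cl4 (adjusted p = 0.00749). With the scan number in the model the first difference was -0.70 (adjusted p = 0.176), and with the hybridization controls it was -0.68 (adjusted p = 0.187).

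Il7r encodes the interleukin-7 receptor, which keeps naive and memory T cells alive and is also present on innate lymphoid cells. It read 6.55, 6.00 and 5.48 in 67NR, 7.48, 6.18 and 6.24 in 66cl4 and 6.55, 8.01 and 7.57 in 4T1. The spread within lines was wide and all lines overlapped. The difference of 4T1 from 67NR was 1.36 ± 0.45 (limma adjusted p = 0.0343). The dimmer probe set, above background on 6 arrays, gave 0.94 (adjusted p = 0.0363). Leaving out 67NR replicate 2 (adjusted p = 0.084), 67NR replicate 3 (0.123), 4T1 replicate 2 (0.118) or 4T1 replicate 3 (0.0882) ended the call. With the scan number in the model, Il7r differed by 0.38 (adjusted p = 0.729), and with the hybridization controls by 0.79 (adjusted p = 0.538).

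NK and effector genes showed the most varied patterns. All 8 were called between 66cl4 and 67NR, with 7 lower and Eomes higher (median -1.11). In 4T1 against 67NR, 5 were lower and none higher (median -0.71). In 4T1 against 66cl4, 2 were higher (Nkg7 and Ifng) and 2 lower (Eomes and Ncr1). Calls in either direction covered 36.1%, 39.9% and 41.3% of all genes in these comparisons. The 4 of 8 called in the last of them lie near its share. The transcription factors, the receptors and the secreted products are taken in turn.

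Tbx21 encodes T-bet, which drives type 1 responses. It read 5.74, 5.12 and 5.28 in 67NR, 4.31, 4.23 and 4.45 in 66cl4 and 4.58, 5.52 and 4.82 in 4T1, with no array of 66cl4 and 1 of 4T1 above background. Tbx21 was at least 1.39-fold higher in 67NR than in 66cl4 (limma adjusted p = 0.00696). For 4T1 over 66cl4 the bound was at least 1.05-fold with no call (adjusted p = 0.0538), though the adjusted p was 0.0447 without 67NR replicate 1 and 0.0192 without 4T1 replicate 1. Against 67NR, Tbx21 in 4T1 was -0.41 ± 0.24 (adjusted p = 0.209). Without 4T1 replicate 2, the 1 array of that line above background, the adjusted p was 0.0205.

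Eomes encodes eomesodermin, the related T-box factor of NK and memory CD8 T cells. Its signals were 6.23, 6.23 and 6.15 in 67NR, 7.43, 7.48 and 7.26 in 66cl4 and 5.31, 5.20 and 5.50 in 4T1. The lines did not overlap anywhere, the spread within them was small, and the order was opposite to that of Tbx21 for 66cl4. Eomes was 1.19 ± 0.11 higher in 66cl4 than in 67NR (2.28-fold, limma adjusted p = 3.86e-05). In 4T1 it was -0.87 ± 0.11 against 67NR (adjusted p = 0.000198) and -2.05 ± 0.11 against 66cl4 (adjusted p = 6.79e-07). A second Eomes probe set gave 1.02 for 66cl4 against 67NR (adjusted p = 0.000344) and -1.14 for 4T1 against 66cl4 (adjusted p = 0.000125). On that probe set 4T1 and 67NR differed by -0.12 (adjusted p = 0.529), so the fall in 4T1 against 67NR rested on the brightest probe set.

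Nkg7 encodes a granule protein of cytotoxic lymphocytes. It read 9.16, 8.40 and 8.47 in 67NR, 7.31, 6.81 and 6.83 in 66cl4 and 7.71, 8.32 and 7.91 in 4T1, so the lines stood in the order 67NR, 4T1, 66cl4 without overlap. The differences were -1.69 ± 0.23 for 66cl4 against 67NR (limma adjusted p = 0.000446), -0.70 ± 0.23 for 4T1 against 67NR (0.0389) and 1.00 ± 0.23 for 4T1 against 66cl4 (0.00732). The middle one was lost without 67NR replicate 1 (-0.46, adjusted p = 0.13), 4T1 replicate 1 (adjusted p = 0.117) or 4T1 replicate 3 (adjusted p = 0.0893).

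Klrd1 encodes CD94, which pairs with NKG2 receptors. It read 9.12, 8.37 and 8.19 in 67NR, 7.46, 7.13 and 6.74 in 66cl4 and 6.84, 7.70 and 7.61 in 4T1. Here 66cl4 and 4T1 overlapped and both lay below 67NR, with differences of -1.45 ± 0.30 (limma adjusted p = 0.00428) and -1.17 ± 0.30 (adjusted p = 0.0108). Klrk1, the NKG2D gene, read 6.36, 6.42 and 6.11 in 67NR, 5.51, 4.86 and 5.00 in 66cl4 and 5.50, 5.60 and 5.60 in 4T1. It had the same layout, with differences from 67NR of -1.17 ± 0.16 in 66cl4 (adjusted p = 0.000477) and -0.73 ± 0.16 in 4T1 (adjusted p = 0.00592). Klrk1 in 4T1 was 0.45 ± 0.16 above 66cl4 (adjusted p = 0.0535), and was called there without 66cl4 replicate 1 (0.64, adjusted p = 0.0053).

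Ncr1, whose product NKp46 is an activating receptor largely restricted to NK cells, read 6.41, 6.82 and 6.70 in 67NR, 6.20, 5.91 and 6.01 in 66cl4 and 5.26, 4.48 and 4.66 in 4T1. The lines did not overlap, 4T1 was lowest and 1 of its 3 arrays was above background. Ncr1 was -1.84 ± 0.20 in 4T1 against 67NR (limma adjusted p = 6.98e-05) and -1.24 ± 0.20 against 66cl4 (adjusted p = 0.000805). The smaller difference of 66cl4 from 67NR, -0.60 ± 0.20 (adjusted p = 0.0374), was less firm. It was lost without 67NR replicate 2 (adjusted p = 0.125), 67NR replicate 3 (0.1), 66cl4 replicate 1 (0.0506), 66cl4 replicate 2 (0.114) or 66cl4 replicate 3 (0.0904).

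Ifng encodes interferon gamma, the main macrophage-activating product of both cell types. Its signals were 6.08, 5.34 and 5.42 in 67NR, 3.59, 3.78 and 3.56 in 66cl4 and 5.35, 6.67 and 6.57 in 4T1. All 66cl4 arrays were at background and all others above it. Ifng was at least 1.63-fold higher in 67NR (limma adjusted p = 0.00118) and at least 2.44-fold higher in 4T1 (adjusted p = 0.000206) than in 66cl4. Between 4T1 and 67NR it differed by 0.58 ± 0.32 (adjusted p = 0.189), and without 4T1 replicate 1 by 1.00 (adjusted p = 0.0049). Xcl1, a chemokine of NK and CD8 T cells that draws dendritic cells, read 5.02, 5.38 and 5.23 in 67NR, 4.26, 4.37 and 4.86 in 66cl4 and 4.89, 5.03 and 4.69 in 4T1. It was at background in 66cl4 and at least 1.23-fold higher in 67NR (adjusted p = 0.00944). In 4T1, 1 array was above background, but the Xcl1 mean of 4.87 did not exceed the mean background of the 66cl4 arrays. No fold is therefore given for 4T1 against 66cl4 (adjusted p = 0.111, or 0.02 without 66cl4 replicate 3).

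The homing receptors had wide ranges. Cxcr3, the receptor for Cxcl9, Cxcl10 and Cxcl11 on activated T and NK cells, read 7.35, 7.17 and 7.42 in 67NR, 6.86, 6.22 and 6.66 in 66cl4 and 8.19, 8.67 and 8.16 in 4T1. The order was 4T1, 67NR, 66cl4 with no overlap. Cxcr3 was -0.74 ± 0.19 in 66cl4 against 67NR (limma adjusted p = 0.0125), 1.02 ± 0.19 in 4T1 against 67NR (adjusted p = 0.00183) and 1.76 ± 0.19 in 4T1 against 66cl4 (adjusted p = 6.78e-05). With the scan number in the model the first was -0.73 (adjusted p = 0.0733) and the second 1.03 (adjusted p = 0.0661), so their sizes stayed and their calls were lost.

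Cxcr6, which binds Cxcl16 and marks tissue-homing effector cells, read 7.84, 6.31 and 6.76 in 67NR, 4.16, 4.86 and 5.44 in 66cl4 and 6.52, 7.82 and 6.53 in 4T1. The 66cl4 values lay below all others and 1 of the 3 was above background. The differences were -2.15 ± 0.48 in 66cl4 against 67NR (limma adjusted p = 0.0062) and 2.14 ± 0.48 in 4T1 against 66cl4 (adjusted p = 0.00545), while 4T1 and 67NR differed by -0.02 ± 0.48. A dimmer probe set gave -2.07 and 2.23 for the called comparisons. It was above background on 6 arrays, and its 66cl4 mean of 4.09 lay under the background controls, so these differences have no firm size. With the scan number in the model, Cxcr6 was -1.40 in 66cl4 against 67NR (adjusted p = 0.102), and the calls of Xcl1 (0.136) and Tbx21 (0.0781), which were at background in 66cl4, were lost too.

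Adding a measure of the array run to the model ended some further calls and added others, without turning the direction of a called gene. For 66cl4 against 67NR the scan number gave -0.91 for Cd5 (limma adjusted p = 0.0505), -0.72 for Lat (0.101) and -0.66 for Ncr1 (0.11), and the hybridization controls gave -0.73 for Lat (0.0604), -0.68 for Ncr1 (0.0623) and -0.65 for Cxcr3 (0.0598). For 4T1 against 67NR, Nkg7 grew to -0.98 with the scan number (adjusted p = 0.13) and to -1.01 with the controls (0.127). For 4T1 against 66cl4 the controls ended the calls of Cd6 (0.64, adjusted p = 0.0537), Pdcd1 (0.269), Havcr2 (0.63, 0.242), Il2rb (0.69, 0.0936), Ccr7 (-0.63, 0.0805) and Nkg7 (0.82, 0.0721), and the scan number those of Pdcd1 (0.103), Havcr2 (0.64, 0.105) and Il2rb (0.57, 0.0675). Calls were gained with the scan number for Zap70, at -0.43 in 66cl4 (adjusted p = 0.0392) and -0.65 in 4T1 (0.0306) against 67NR, and for Cd247, at -0.94 in 4T1 against 67NR (0.0276). Xcl1 in 4T1 against 66cl4 was called with the scan number (adjusted p = 0.0166) and with the controls (0.0265). Cd3g, Cd3d, Cd4, Cd8a, Cd8b1, Lag3, Ifng and Eomes lost none of their calls in either of these fits.

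**Figure D3:**
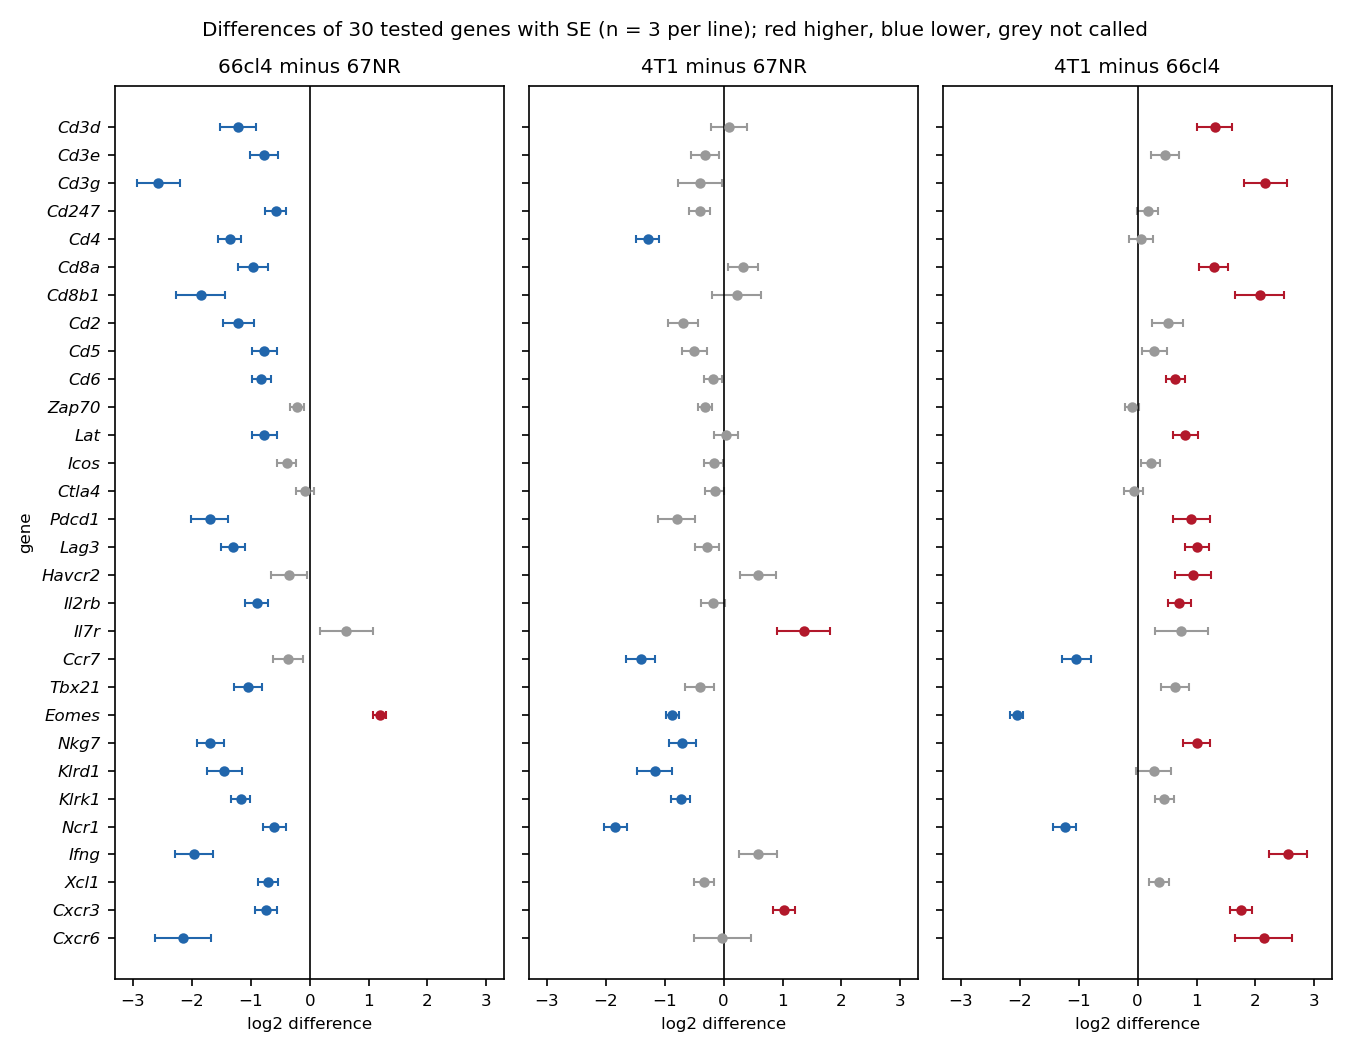
Log2 differences of the 30 tested genes in the 3 pairwise comparisons (points) with SE (bars, n = 3 mice per line), in red for genes called higher, blue for lower and grey for not called at a limma adjusted p under 0.05. In 66cl4 minus 67NR 23 points are blue and Eomes is red, and in 4T1 minus 66cl4 14 are red.

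Other genes of T and NK cells were read from a further list. Of 51 further genes listed, 46 were measured and 37 tested. In 66cl4 against 67NR, 19 were lower and 1 higher (median -0.60), in 4T1 against 67NR 11 were lower and 2 higher (median -0.27), and in 4T1 against 66cl4 13 were higher and 3 lower (median 0.35). The 20 of 37 called in the first comparison exceed the all-gene share of 36.1%, while 13 and 16 of 37 lie near the shares of 39.9% and 41.3%. Gimap4, a GTPase of lymphocytes, was -2.39 ± 0.26 in 66cl4 (limma adjusted p = 0.000108) and -1.43 ± 0.26 in 4T1, both against 67NR. Rasgrp1, which couples the T cell receptor to Ras, was -1.57 in 66cl4 against 67NR and 1.11 in 4T1 against 66cl4. Lcp2, the adaptor SLP-76, was lower than in 67NR in 66cl4 (adjusted p = 0.000288) and in 4T1 (-1.18), and Fasl, the death ligand of killer cells, was -1.22 in 66cl4. Il12rb1, a chain of the interleukin-12 and interleukin-23 receptors, went the other way, reading 8.52, 8.96 and 8.74 in 4T1 and 5.93 to 6.64 elsewhere, which made 2.20 ± 0.18 against 67NR (adjusted p = 1.19e-05). Named as exceptions to the choice by p, further genes were split in 66cl4 against 67NR. Il18rap was the 1 gene called higher (1.56 ± 0.36, limma adjusted p = 0.00821). Prf1 (1.07) and Gzmb (0.82) were above 67NR without a call, and Gzma (-2.57) and Ctsw (-1.14) were called lower.

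Chemokines that draw these cells were split by line. Of 8 tested, 5 were lower and 1 higher in 66cl4 than in 67NR, beside 36.1% of all genes called either way. Cxcl9, a ligand of Cxcr3, read 11.50, 11.56 and 10.75 in 67NR, 6.27, 5.64 and 7.61 in 66cl4 and 11.42, 12.51 and 11.87 in 4T1. Cxcl11, another ligand, read 7.77 to 8.39 in 67NR, 5.18 to 6.09 in 66cl4 and 11.19 to 11.88 in 4T1. Both thus had 66cl4 as the lowest line, as Cxcr3 did. Cxcl10, the remaining ligand of Cxcr3, was -2.45 ± 0.28 in 66cl4 (limma adjusted p = 0.000136) and 1.56 ± 0.28 in 4T1 (adjusted p = 0.00162) against 67NR. Cxcl16, the ligand of Cxcr6, was -1.51 ± 0.19 in 66cl4 against 67NR (limma adjusted p = 0.000242). Cxcl12 ran the other way and was highest in 66cl4, at 1.81 against 67NR, and lowest in 4T1, at -2.65 against 67NR.

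Of the ligands of the 36 genes' products, 12 of 20 listed were tested. Cd274, which encodes the PD-1 ligand PD-L1, read 7.44, 7.20 and 6.88 in 67NR, 5.70, 5.90 and 5.85 in 66cl4 and 8.33, 9.18 and 9.34 in 4T1. It was -1.36 ± 0.25 in 66cl4 (limma adjusted p = 0.00203) and 1.77 ± 0.25 in 4T1 (adjusted p = 0.000357) against 67NR, the lines standing apart. Alcam, the ligand of Cd6, was 1.16 in 66cl4 and 2.62 in 4T1 against 67NR. Cd48, the ligand of Cd2, was -1.33 in 4T1 against 67NR, and Il7, the ligand of Il7r, was 0.86.

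Markers of other cells were read beside these genes, and their part in the results was not tested. Of 11 pan-leucocyte genes, 3 were higher and 1 lower (Ptprc, at -0.74) in 66cl4 than in 67NR, and 7 were lower and 0 higher in 4T1 than in 67NR. The 4 of 11 called in 66cl4 lie at the all-gene share of 36.1%. For 4T1 against 67NR the all-gene share was 39.9%. Their log2 summed signal was 13.81 to 13.93 in 67NR, 13.94 to 14.25 in 66cl4 and 13.38 to 13.57 in 4T1, while that of the 34 measured T and NK genes was 11.85 to 12.38, 11.04 to 11.41 and 11.48 to 12.09. The sum of the T and NK genes was thus lowest in 66cl4, where the pan-leucocyte sum was highest. The pan-leucocyte genes did not move together, however. Their median difference of 66cl4 from 67NR was -0.01, with 6 genes below 0 and 5 above. The 3 called higher were Cd37 (1.81), Itgb2 (0.89) and Cd53 (0.63). Of 11 macrophage markers, 4 were higher and 1 lower in 66cl4 and 9 were lower in 4T1 than in 67NR (summed 15.00 to 15.29, 15.10 to 15.53 and 14.10 to 14.22). The 5 of 11 called in 66cl4 lie near the share of 36.1%. Dendritic cell markers were lower in 4 of 7 tested cases in 66cl4 and in 2 in 4T1 (summed 10.39 to 10.81, 9.60 to 9.97 and 10.76 to 10.97), and 1 of 8 measured, Xcr1, was at background throughout. The 2 of 7 in 4T1 lie under the share of 39.9%.

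Mast cell and endothelial markers were also highest in 67NR by their sums. Calls in either direction covered 36.1% of all tested genes in 66cl4 and 39.9% in 4T1, both against 67NR. All 9 mast cell markers were lower in 66cl4 than in 67NR and 8 in 4T1, with medians of -5.06 and -5.40 (summed 14.05 to 14.54 in 67NR, 8.92 to 9.35 in 66cl4 and 8.59 to 9.14 in 4T1). Among 8 endothelial markers, 8 and 7 were lower (summed 12.22 to 12.79, 10.37 to 10.65 and 11.10 to 11.22). Of 7 tested B cell genes, 1 was lower in 66cl4 and 3 in 4T1 (summed 10.26 to 10.42, 9.80 to 10.14 and 8.92 to 9.65). The 1 of 7 lies under the share for 66cl4, and the 3 of 7 near that for 4T1. Among further B cell genes, chosen here after their values were seen, Ms4a1 was 6.04 on 4T1 replicate 2 and 3.92 to 4.77 on the other arrays. On the 4T1 arrays Cd79b read 5.30, 6.74 and 4.49 and Cd79a 5.67, 6.69 and 5.31. Replicate 2 was thus the highest of its line in these B cell genes, but Cd79a was also 6.74 on 66cl4 replicate 2. Other B cell genes, also named after their values were seen, were split on 4T1 replicate 2. Pax5 (4.72) and Bank1 (4.77) were there at their lowest of the 9 arrays, while Cd22 (7.37) and Blnk (7.78) were at their highest of 4T1. Of 7 tested neutrophil genes, 0 were called in 66cl4 and 3 were higher in 4T1 (summed 10.39 to 11.42, 9.75 to 11.10 and 11.81 to 12.39). The 3 of 7 lie near the share of 39.9%. Of 6 measured lymph node genes, Cr2, Fcer2a, Madcam1 and Cxcr5 were at background on all arrays. Cxcl13, the 1 gene of this list that was tested, was above background on all 9 arrays, from 5.91 to 7.15. It was not called by limma in any comparison of the lines. Glycam1, named after its values were seen and a product of lymph node vessels and of milk-forming epithelium, was 8.78 on 66cl4 replicate 1 and 3.50 to 4.07 on the other arrays.

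**Figure D4:**
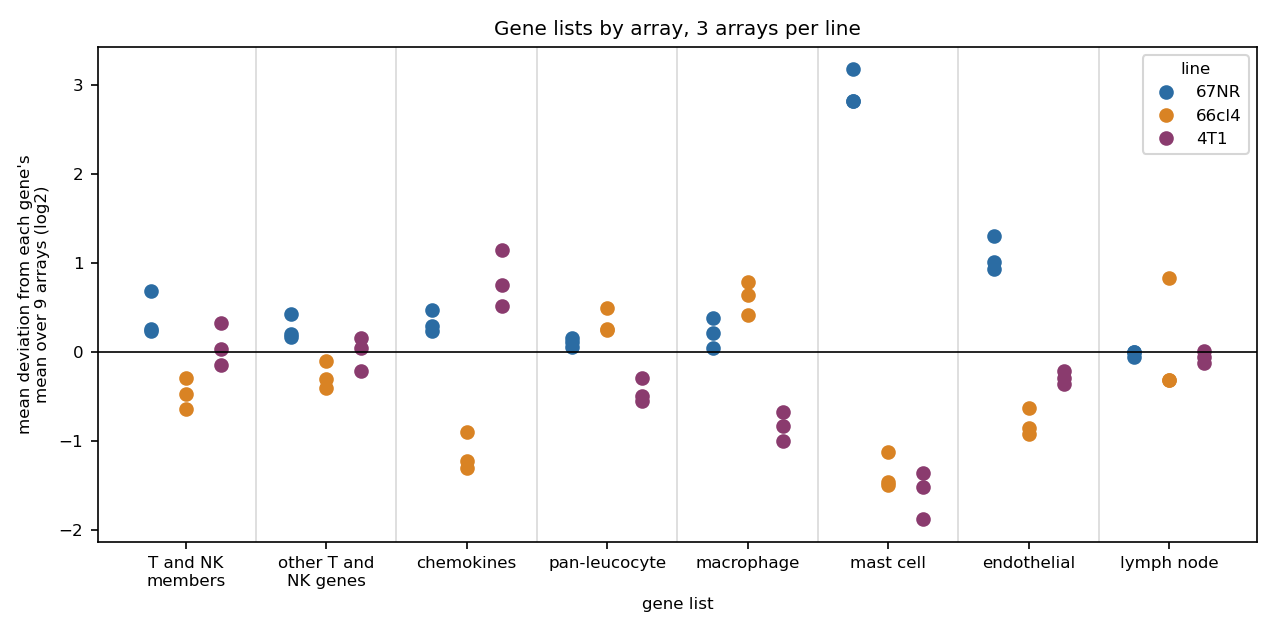
Mean deviation of the measured genes of 8 lists from each gene's mean over the 9 arrays (log2, vertical axis), with 1 point per array and 3 arrays per line, coloured by line. By this mean the T and NK genes are lowest in 66cl4 and highest in 67NR replicate 1. By the same mean the pan-leucocyte and macrophage genes are highest in 66cl4 and lowest in 4T1, although single pan-leucocyte genes differ in direction.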

How the data were processed

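The authors deposited 1 log2 value for each of 45101 probe sets (64 of them controls) on each of 9 single-colour Affymetrix arrays. The range of the values, 2.42 to 14.80, gave the log2 scale. The sources used here do not give the summarisation of probes or the normalisation of arrays. Probe sets annotated to 1 gene (34945, of which 34741 matched a RefSeq gene table by Entrez identifier) were used, those with several genes (932) or unnamed here (9224) were not, and the brightest probe set by its mean of the 9 arrays stood for its gene. A gene was tested when above its array's 40th percentile on at least 3 arrays. limma 3.58.1 in R 4.3.3 fitted all 9 arrays together, with 6 residual and 3.63 prior degrees of freedom, and tested pairs of lines two-sided, which was checked on simulated data. An exact permutation test of 3 against 3 mice cannot go below 0.1. For a gene at background in a line, the bound "at least" compares the brighter line with the mean of that line's arrays' highest bacterial control. Each member gene is reported, with values by array where it was called, and genes of a further list come from the up to 4 with the smallest p in each comparison, exceptions marked. The members and lists were chosen with earlier results of these data known. Samples of a line are separate mice per the labels. Replicate numbers are not stated to pair the mice, and the main fit did not pair them. Other probe sets, filters, scalings, covariates and fits without single arrays were tried.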

Additional observations from a re-analysis of the deposited data

How the results depend on the processing

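Over 20 alternatives for each pair of lines, and 19 for the F-test, the number of listed genes called stayed within 1.5 times the main count of the 30 tested, although the number tested changed in some (34 with no filter, which gave the highest count for 4T1 against 67NR, 29 with the mean of probe sets and 28 in the fit of 4T1 and 66cl4 alone), and no called gene changed direction. The counts without single arrays ran from 19 to 24 for 66cl4 against 67NR, 8 to 11 for 4T1 against 67NR, 14 to 19 for 4T1 against 66cl4 and 21 to 26 for the F-test. Under the other settings they ran from 18 to 25, 6 to 12, 12 to 18 and 23 to 26. The share of all genes called moved as well. For 4T1 against 67NR that share was 39.9% in the main fit, 19.8% with the scan number and 16% with the hybridization controls. The 7 and 6 of 30 listed genes called in those 2 fits were no longer under the share, unlike the 9 of the main fit. With the replicate number as a block the counts were 22, 9, 17 and 24. The block lost Cd3e (adjusted p = 0.0527) and Ncr1 (0.0557) in 66cl4 against 67NR, and in 4T1 against 67NR it lost Il7r (0.0538) and gained Cd5 (0.0437). The numbers are not stated to mark shared litters or days. Deviations of same-numbered arrays correlated between -0.115 and 0.159, and those of other pairs between -0.182 and 0.161. With so few arrays this cannot show whether equal numbers share anything. Of the called genes, 15 of 24, 5 of 9 and 11 of 17 kept their call under every alternative. Fits of only the compared lines lost Nkg7 in 4T1 against 67NR (adjusted p = 0.0519) and Havcr2 in 4T1 against 66cl4 (0.0633). With 3 mice a line the number of arrays limits what can be called, and a gene at background has only a bound.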
